A study of Homo sapiens with 12 samples.

Results

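The 7 genes described here encode the T cell receptor chains and the CD3 subunits: TRAC, TRBC1 and TRBC2, which hold the constant regions of the alpha and beta chains, and CD3D, CD3E, CD3G and CD247. They were taken by symbol from the tables of called eIF3 crosslinking clusters of 20 libraries. RNA levels came from the mean TPM tables of separate RNA-seq samples of Jurkat cells in the same states. Of the 6036 genes with a called cluster in at least 1 library, 6 are members, and TRBC1 was not listed in any of the 20 libraries. All libraries came from Jurkat cells, a human T cell leukaemia line grown from one clone. Activated cells were given PMA, a phorbol ester, together with ionomycin for 5 hr, and non-activated cells were not. For PAR-CLIP, activated cells were in 50 µM 4-thiouridine for 7 hr before and through the 5 hr of activation, and non-activated cells for as long. Both states were crosslinked at 365 nm with 0.2 J/cm2, so neither state is free of labelling or UV in PAR-CLIP. Neither 4-thiouridine nor UV is stated for the RNA-seq samples. eIF3 was precipitated with an antibody to EIF3B, and RNA was sequenced from 5 gel bands, with 2 replicates of each state and band. Each band is named after the eIF3 subunits found in it. EIF3A/C/B and EIF3B/C were the most deeply sequenced in activated cells, EIF3D/L came next, and EIF3F/E was shallow, as was EIF3G/E/F. PMA and ionomycin act downstream of the receptor and bypass it.

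The alpha and beta chains bind peptide on an MHC molecule and have almost no cytoplasmic tail. Signals pass instead through CD3D, CD3E, CD3G and the CD247 (zeta) chain, whose tails carry the tyrosine motifs that LCK phosphorylates and ZAP70 reads. Each alpha or beta mRNA is spliced from a rearranged variable and joining exon to a constant gene, so reads on TRAC or a TRBC gene cover the constant end of the mRNA and its 3'-UTR. eIF3 is the translation initiation factor that helps to bring mRNA to the small ribosomal subunit. In PAR-CLIP, 4-thiouridine that is crosslinked to protein is read as a T-to-C conversion.

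Depth differed between the states, and this touched every comparison. Uniquely aligned reads ran from 83846 to 1163754 per library, with 1148037 and 1163754 in activated EIF3A/C/B, against 84320 and 83846 in non-activated EIF3A/C/B. A cluster needed at least 7 reads, so a gene that is not listed has no called cluster, which does not mean 0 reads. The share of uniquely aligned reads on mRNA was 28.7 to 49.3% in activated libraries, against 12.5 to 37.2% in non-activated ones, and was lowest in non-activated EIF3D/L (12.6 and 12.5%). Among the T cell markers, CD2 had 2.97 TPM in activated cells and 14.9 TPM in non-activated cells, LCK had 10.5 and 67.1 TPM, and CD4, a helper T cell coreceptor, was near 0 in both (0.0196 and 0.234 TPM). CD69, an early activation marker, had 13.3 TPM in activated cells, against 0.850 TPM in non-activated cells. Markers of other cell types summed to at most 4.85 TPM per list, of which CD79A held 4.82 TPM in non-activated cells.

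Both beta constant genes lie on chromosome 7 of hg38, TRBC1 at chr7:142791694-142793368 and TRBC2 at chr7:142801041-142802748 (plus strand, GENCODE release 44). Their first exons are 387 bases long and differ at 7 positions (98.2% identical). The opening of that exon is shown because it holds 3 of these 7 differences, in capitals.
TRBC2 exon 1, chr7:142801041-142801070: aggacctgaaAaaCgtgttcccacccAagg
TRBC1 exon 1, chr7:142791694-142791723: aggacctgaaCaaGgtgttcccacccGagg
Of all windows of 30 bases in the TRBC2 coding sequence, 51.0% also occur in TRBC1, whereas 0 of the 190 such windows in its 3'-UTR do. The authors kept uniquely aligned reads. Reads from the shared windows therefore cannot be placed, and "TRBC2" below is the name the authors' tables give, which is uncertain for these coding sequences. Whether the gene models used for the cluster tables (GENCODE release 21) hold TRBC1 was not tested here.

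The remaining members lie on other chromosomes. TRAC is at chr14:22547506-22552156 (plus strand) and CD247 at chr1:167425027-167518640 (minus strand). CD3E at chr11:118304730-118316175 (plus), CD3D at chr11:118339075-118342705 (minus) and CD3G at chr11:118344344-118355161 (plus) are neighbours on chromosome 11. The start codons of CD3D, CD3E and CD247 are shown because the tables placed called sites on them, with the ATG in capitals.
CD3D start codon, chr11:118342590-118342619, minus strand: ttccgctgggagATGgaacatagcacgttt
CD3E start codon, chr11:118304941-118304970, plus strand: catgaaacaaagATGcagtcgggcactcac
CD247 start codon, chr1:167518448-167518477, minus strand: ggaaaggacaagATGaagtggaaggcgctt
A conversion needs a T, and these stretches of 30 bases hold 8 T in CD3D, 4 in CD3E and 4 in CD247. The CD3G start codon, with 1 called site in activated cells, is not shown, and its stretch holds 2 T. The stop codons below are shown because they were the only named region with sites on the receptor chains, and CD3D is given beside them. The stop codon is in capitals, and the TRAC stretch is spliced across a junction.
TRAC stop codon, chr14:22550649-22551618, plus strand: ctgtggtccagcTGAgatctgcaagattgt
TRBC2 stop codon, chr7:142802515-142802544, plus strand: gattccagaggcTAGctccaaaaccatccc
CD3D stop codon, chr11:118339147-118339176, minus strand: gctcggaacaagTGAacctgagactggtgg

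The study also designed guide RNAs to cut in the 3'-UTRs, and the TRAC pair is shown to place its target within the gene. Each guide matched the genome once, with its PAM in capitals.
TCRA gRNA 1, chr14:22551684-22551703, plus strand: gaactctcctacccccaaggAGG
TCRA gRNA 2, chr14:22552057-22552076, plus strand: gggaaattatctcattatcgAGG
The TCRA pair lies in exon 4 of TRAC, in its 3'-UTR, with 373 bases between the expected cuts. The interval lies wholly in exon sequence and holds 28.2% T. The guides against the beta chain were not used here, because a listed sequence did not match the genome at its stated position. The deposited tables give no position of a site within a gene, so how many reads fell in the TRAC interval was not analysed here.

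In activated cells, TRBC2 carried by far the most crosslinked reads of the members, and TRAC and CD3D came next. TRBC2 had 1185 and 1194 reads in EIF3A/C/B, 811 and 826 reads in EIF3B/C, and 161 and 226 reads in EIF3D/L. In the remaining bands TRBC2 had 28 and 45 reads in EIF3F/E, and 28 reads in replicate 2 of EIF3G/E/F, with no listing in replicate 1. By reads it stood 20 of 4916 and 22 of 4890 listed genes in EIF3A/C/B, 23 of 3516 and 24 of 3454 in EIF3B/C, and 14 of 821 and 12 of 1059 in EIF3D/L. These reads came from 19 and 23 sites in EIF3A/C/B, from 27 and 18 sites in EIF3B/C, and from 11 and 10 sites in EIF3D/L.

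TRAC had 343 and 341 reads in EIF3A/C/B (8 and 7 sites), 362 and 340 in EIF3B/C (10 and 10 sites), and 8 and 28 in EIF3D/L (1 and 2 sites). Outside these bands TRAC was not listed in activated cells. CD3D, which pairs with CD3E in the complex, had 350 and 338 reads in EIF3A/C/B (4 and 6 sites), 170 and 192 in EIF3B/C (6 and 5 sites), 109 and 112 in EIF3D/L (2 and 2 sites), and 20 and 20 in EIF3G/E/F (1 and 2 sites). TRAC and CD3D thus had almost the same number of reads in EIF3A/C/B, with ratios of TRAC to CD3D of 0.98 and 1.01. In EIF3B/C that ratio was 2.13 and 1.77, and in EIF3D/L it was 0.0734 and 0.25.

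The other signalling subunits were near the lower limit of the method. CD247 had 34 and 42 reads in EIF3A/C/B and 33 and 27 in EIF3B/C, with 3 sites in each of the 4 libraries. CD3E had 29 and 30 reads in EIF3A/C/B and 31 and 7 in EIF3B/C, from 1 to 3 sites. CD3G, the partner of CD3E in the second heterodimer, had 19 and 16 reads in EIF3A/C/B from 1 site each, and 20 reads from 2 sites in replicate 2 of EIF3B/C. These 3 genes were not listed in any other band of activated cells. Within one receptor complex, CD3D therefore had 12.1 and 11.3 times the EIF3A/C/B reads of CD3E, and 10.3 and 8.05 times those of CD247.

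**Figure D1:**
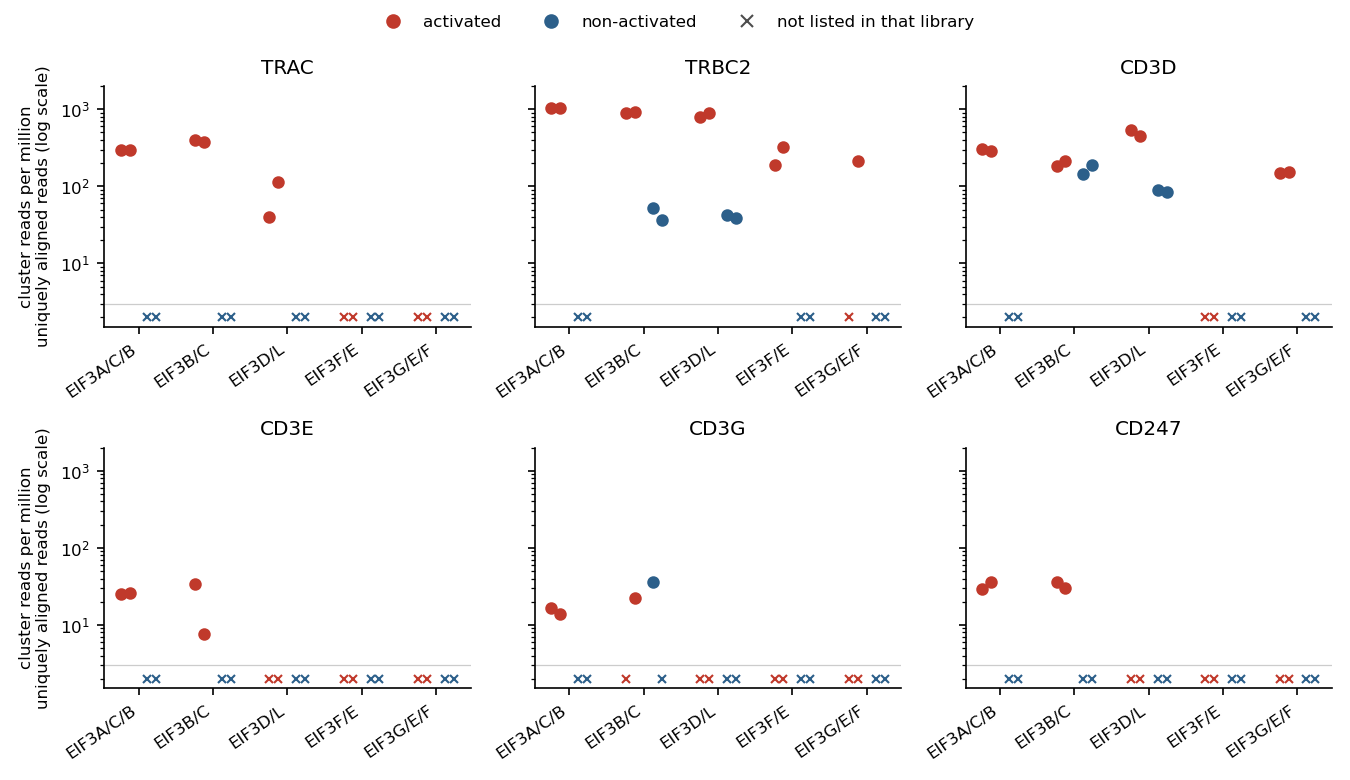
Reads in called clusters per 1000000 uniquely aligned reads (RPM; vertical axis, log scale) of the 6 listed members in each gel band, 1 point per library, with activated cells on the left and non-activated cells on the right of each band. Crosses under the line mark libraries in which the gene was not listed. TRBC2 lies at 804 to 1032 RPM in the activated libraries of the 3 deepest bands, and in EIF3B/C the CD3D points of the states lie close together (186 and 212 RPM in activated cells, against 146 and 188 RPM in non-activated cells).

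Per length, the beta constant gene was among the most densely crosslinked transcripts of the libraries. With 758 bases in its annotated constant transcript, TRBC2 had 25.1 and 30.3 sites per kb in EIF3A/C/B, against a median of 0.806 and 0.821 over all listed genes with a length, and ranked 4 of 4381 and 2 of 4365. In EIF3B/C it had 35.6 and 23.7 sites per kb (ranks 2 and 4), and in EIF3D/L 14.5 and 13.2 (ranks 1 and 3). TRAC, with 976 bases, had 8.20 and 7.17 sites per kb in EIF3A/C/B and 10.2 in both EIF3B/C libraries. CD3D had 4.65 and 6.97 sites per kb in EIF3A/C/B. CD247 had 1.79 in both libraries, CD3E 1.29 and 1.94, and CD3G 0.848 in both, close to the median gene. The lengths of TRAC and TRBC2 leave out the variable exon of the mRNA.

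Set against RNA abundance in the same state, TRBC2 over its own TPM was above the median gene in the 3 deepest bands. Over the TPM of TRBC1 and TRBC2 together, it was above the median in EIF3A/C/B and EIF3B/C and under it in EIF3D/L. TRAC changed sides with the band in the same way. RPM of cluster reads is not scaled to transcript length, whereas TPM is, so the ratio also depends on length. Places above or under the median gene were not corrected for this. In activated EIF3A/C/B, TRBC2 had 120 and 120 RPM of cluster reads per TPM (ranks 96 of 2177 and 97 of 2178), TRAC had 19.9 and 19.5, and the median gene had 13.1 and 13.1. CD3D had 7.80 and 7.43, CD3E 7.69 and 7.84, and CD3G 4.82 and 4.00, all under that median. CD247 was above it with 14.9 and 18.2. The TRBC2 value rests on a split of beta constant RNA between the genes: over the TPM of TRBC1 and TRBC2 together it became 24.9 and 24.7. In activated EIF3D/L, TRAC had 2.66 and 7.48 RPM per TPM, under CD3D (13.9 and 11.5) and under the median gene (24.8 and 22.8), while TRBC2 had 93.7 and 105. Over the TPM of both beta constant genes the TRBC2 value there became 19.4 and 21.8, under the median gene in both libraries.

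The T-to-C fraction of the members ran from 0.571 (CD3G in non-activated EIF3B/C, 7 reads) to 1 over all libraries that list them. In activated EIF3A/C/B, where the median over all listed genes was 0.867 in both libraries, it averaged 0.850 ± 0.0201 for TRBC2, 0.824 ± 0.00619 for TRAC, 0.840 ± 0.0236 for CD3D, 0.868 ± 0.0683 for CD3E, 0.786 ± 0.0941 for CD247 and 0.770 ± 0.0279 for CD3G (SD, n = 2 each). CD247 alone had 0.852 and 0.719 there. The order of these means was not tested. In EIF3B/C, CD3D had a fraction of 0.881 ± 0.0110 in activated cells and 0.950 ± 0.0303 in non-activated cells (SD, n = 2 each). The share of distinct sequences among the EIF3A/C/B reads was 90.7 and 89.7% for TRAC, 72.5 and 73.8% for TRBC2, and 65.7 and 63.9% for CD3D.

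The CD3 genes differed among themselves in where their sites lay. Across the activated libraries, the 4 CD3 genes had 52 sites, of which 7 were in the 5'-UTR, 12 on the start codon, 17 in coding exons, 4 on the stop codon and 9 in the 3'-UTR, with 3 given no region. Over all genes, 37.1% of the sites of activated EIF3A/C/B replicate 1 were in the 5'-UTR, 8.95% on the start codon, 23.3% in coding exons and 12.2% in the 3'-UTR. In activated EIF3B/C replicate 1 these shares were 38.2, 4.35, 19.6 and 19.9%, so the background differs by band. CD3D had 15 of its 28 sites in coding exons and 6 on the start codon shown above, and none in the 3'-UTR. CD247 had 6 of 12 sites in the 3'-UTR (2 and 3 of them in the EIF3B/C libraries), 3 on the start codon and 3 in the 5'-UTR. CD3G had 3 of 4 sites in the 5'-UTR, and CD3E had 3 of 8 in the 3'-UTR. Sites called in different libraries may be the same place seen again, so these counts are not independent.

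For the receptor chains the tables gave almost no region. Of 152 TRAC and TRBC2 sites in activated libraries, 6 were on a stop codon (5 of TRAC and 1 of TRBC2), and 146 carried no region, since the tables file these genes under an RNA class of their own, the T cell receptor constant genes. Coding and 3'-UTR sites of TRAC and TRBC2 can therefore not be told apart here.

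**Figure D2:**
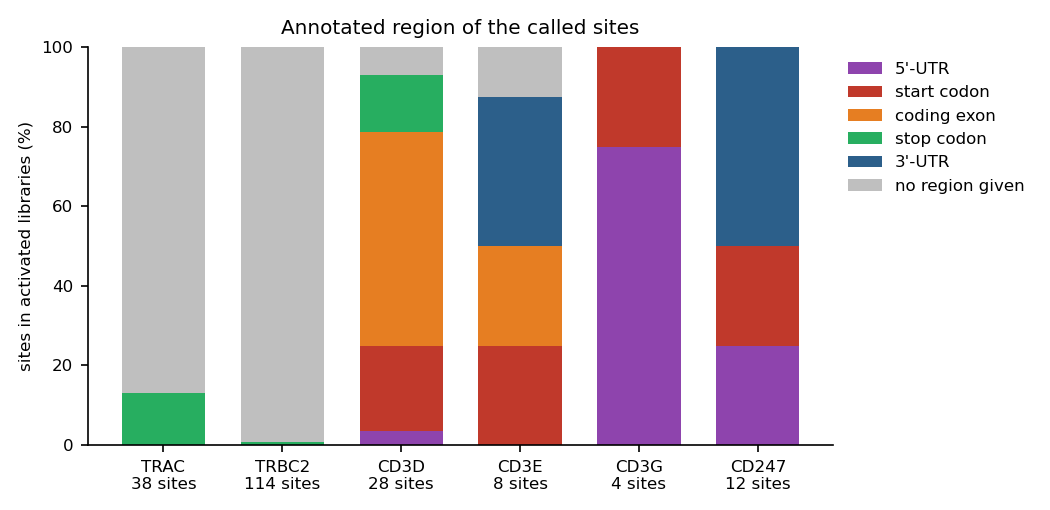
Share (%) of the called sites of each member by annotated region, summed over the activated libraries that list the gene; the number of sites is under each name. Start codon and coding exon sites make up 21 of the 28 CD3D sites, whereas 146 of the 152 receptor chain sites have no region.

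The first comparison asked how crosslinking of the receptor mRNAs differed between activated and non-activated cells. For the alpha and beta constant regions it can be read without cluster calling, from all uniquely aligned reads of their RNA class. In each of the 20 libraries the clusters of that class equalled the TRAC and TRBC2 sites less those on a stop codon, so called clusters of other constant genes did not enter. In number, reads in TRAC and TRBC2 clusters equalled 87.2 and 88.0% of class reads in activated EIF3A/C/B, against 0% in both non-activated libraries. In EIF3B/C the percentages were 86.4 and 84.2%, against 15.2 and 10.7%, and in EIF3D/L 83.3 and 99.2%, against 13.3 and 10.8%. The cluster reads include those of stop codon sites, which are filed outside the class, so the activated percentages are not exact shares of it. Most class reads of non-activated cells thus lie outside called clusters, and their gene is not given. The class had 1753 and 1744 reads in activated EIF3A/C/B, against 50 and 53 in non-activated EIF3A/C/B. In EIF3B/C it had 1358 and 1384 in activated cells, against 66 and 103 in non-activated cells, and in EIF3D/L 203 and 256, against 60 and 65. In the shallower bands the class had 139 and 87 reads in activated EIF3F/E, against 76 and 65 in non-activated EIF3F/E, and 143 and 169 in activated EIF3G/E/F, against 57 and 41 in non-activated EIF3G/E/F.

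Scaled to 1000000 uniquely aligned reads (RPM), the receptor constant class was higher in activated cells in 4 of the 5 bands. It had 1513 ± 20.1 RPM in activated EIF3A/C/B, against 613 ± 27.7 in non-activated EIF3A/C/B, a 2.47-fold difference (SD, n = 2 each). By edgeR's quasi-likelihood test with Benjamini-Hochberg adjustment over the classes tested, the log2 difference was 1.30 (SE 0.0517, adjusted p = 2.6e-05). In EIF3B/C the class had 1505 ± 30.3 and 345 ± 0.701 (4.36-fold; log2 2.12, SE 0.0570, adjusted p = 1.47e-05 by edgeR). In EIF3D/L it had 1019 ± 8.27 and 342 ± 31.6 (2.98-fold; log2 1.58, SE 0.141, adjusted p = 4.89e-06 by edgeR). In EIF3G/E/F it had 1180 ± 158 and 501 ± 77.8 (2.36-fold; log2 1.23, SE 0.169, adjusted p = 2.91e-09 by edgeR). In EIF3F/E it had 790 ± 227 and 621 ± 93.5, and the log2 difference of 0.35 (SE 0.254) did not pass (adjusted p = 0.297 by edgeR).

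Many other classes differed too: in either direction the same test called 55% of all classes tested in the EIF3A/C/B band and 63.2% in the EIF3B/C band. The share was 89.5% for EIF3D/L, 56.2% for EIF3F/E and 63.3% for EIF3G/E/F. The EIF3D/L result turned round with mRNA reads as library sizes (log2 -0.39, adjusted p = 0.0483 by edgeR), beside the low mRNA share of non-activated EIF3D/L given above. In EIF3F/E, activated replicate 1 had 951 RPM and replicate 2 had 630, and without replicate 2 the class passed (log2 0.62, adjusted p = 0.00626 by edgeR).

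The reads of the class also differed in their conversions. The T-to-C fraction of the class was 0.81 and 0.82 in activated EIF3A/C/B, against 0.52 and 0.51 in non-activated EIF3A/C/B, and 0.86 and 0.87 against 0.74 and 0.72 in EIF3B/C. It was 0.81 and 0.79 in activated EIF3D/L, against 0.45 and 0.46 in non-activated EIF3D/L. In EIF3F/E it was 0.78 and 0.74 against 0.36 and 0.26, and in EIF3G/E/F 0.78 and 0.83 against 0.25 and 0.34. In every band both activated libraries were above both non-activated ones. Coding reads of all mRNAs, by contrast, had fractions of 0.77 to 0.80 in activated libraries and 0.72 to 0.80 in non-activated libraries. Counting class reads times their fraction, the activated rate was 3.91 times the non-activated one for EIF3A/C/B and 5.17 times for EIF3B/C. It was 5.24 times for EIF3D/L, 3.08 times for EIF3F/E and 6.56 times for EIF3G/E/F.

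**Figure D3:**
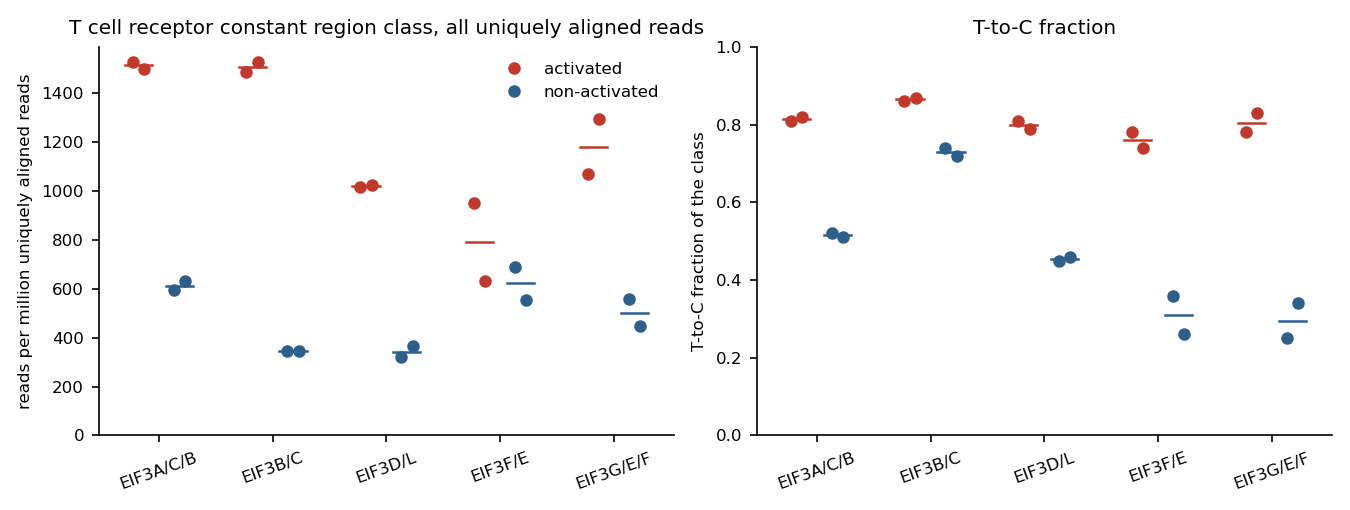
Left, reads of the T cell receptor constant region class in RPM in each band; right, the T-to-C fraction of those reads. Points are libraries (2 per state, activated on the left of each band) and short lines are means: the activated fractions lie at 0.74 to 0.87 and the non-activated ones at 0.25 to 0.74.

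Called clusters gave wider contrasts between the states, but for many members these depend on the calling. In non-activated EIF3A/C/B no member was listed. At the activated rate, TRBC2 would have had 86.8 and 86.3 reads there. Its mean per site would have been 4.13 and 4.11, which is under the minimum of 7 reads. These means were 3.33 and 3.31 for TRAC and 5.02 and 4.99 for CD3D. Reads were uneven over sites, with a mean of 56.3 and a median of 9 for CD3D in activated EIF3A/C/B replicate 2. Single sites may therefore have reached 7 reads, which was not tested. By edgeR 5 of 5 members tested passed, beside 77.6% of all genes tested (in either direction), but each of the 5 entered with 0 reads in both non-activated libraries and met the filter through the activated libraries alone. These calls therefore say nothing about the members, and neither a fold change nor a p is given. CD3G had under 20 reads in each library and was not tested. Without activated replicate 1 or 2, 0 members passed by edgeR.

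Non-activated EIF3B/C had more called clusters (1347 and 2162) than the non-activated libraries of any other band, and both TRBC2 and CD3D were listed there. TRBC2 had 811 and 826 reads in activated cells, against 10 and 11 in non-activated cells, each from 1 site. The activated rate would have given 172 and 268 reads. CD3D had 170 and 192 reads in activated cells, against 28 and 56 in non-activated cells, where 38.1 and 59.3 would have been at the activated rate. TRAC was not listed in non-activated EIF3B/C, where the activated rate would have given 73.8 and 115 reads, or 7.38 and 11.5 per site.

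By edgeR, TRBC2 was higher in activated EIF3B/C (log2 4.35, SE 0.222, adjusted p = 0.0148), and 3 of 6 members were called, beside 43.3% of all genes tested. The others called, TRAC and CD247, entered with 0 reads in both non-activated libraries. TRBC2 had 10 and 11 reads there, so all 3 met the filter of 20 reads through the activated libraries alone. These calls are therefore no independent support for a difference. At the activated rate CD247 would have had 2.10 and 3.27 reads per site there, under the minimum, so its call says nothing about it. The cluster value of TRBC2 was larger than the 4.36-fold of the class reads. Sites under 7 reads drop out of the cluster sums, and the T-to-C fraction of the class was lower in non-activated cells, but the part of either was not tested. CD3D had a log2 difference of 0.25 (SE 0.236, adjusted p = 0.441 by edgeR), with -0.02 under TMM scaling and -0.16 with mRNA reads as library sizes. CD3E (31 and 7 reads against no listing) did not pass. CD3G (20 reads in 1 activated library, 7 in 1 non-activated library) had an adjusted p of 0.845. Without activated replicate 1 or 2, 0 members passed (adjusted p for TRBC2 of 0.376 and 0.357 by edgeR), and 0 genes of all tested did.

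In EIF3D/L, TRBC2 had 161 and 226 reads in activated cells, against 8 and 7 in non-activated cells, where 161 and 153 would have been at the activated rate. CD3D had 109 and 112 reads in activated cells, against 17 and 15 in non-activated cells, where 92.2 and 87.6 would have been. TRAC had 8 and 28 reads in activated cells and was not listed in non-activated cells. All 3 members tested were called higher by edgeR, beside 74.7% of all genes tested. The log2 difference was 4.36 for TRBC2 (SE 0.406, adjusted p = 0.00114 by edgeR) and 2.50 for CD3D (SE 0.370, adjusted p = 0.00123). TRAC entered with 0 reads in non-activated cells. Each of the 3 had under 20 reads in both non-activated libraries and met the filter through the activated libraries alone. These calls are therefore no independent support for a difference. Scaled to mRNA reads, TRBC2 still passed (log2 2.40, adjusted p = 0.0107 by edgeR), whereas CD3D (log2 0.53, adjusted p = 0.275) and TRAC did not. CD3D also did not pass with TMM (log2 0.62, adjusted p = 0.173 by edgeR) or with DESeq2 (adjusted p = 0.494). Without either activated replicate 0 members passed by edgeR (adjusted p for TRBC2 of 0.263 and 0.206), nor did any gene tested.

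In the remaining bands few members could be tested, and each was unlisted in non-activated cells, so the calls below rest on a side set by the calling. TRBC2 in EIF3F/E (28 and 45 reads in activated cells, not listed in non-activated cells) did not pass by edgeR (unadjusted p = 0.0085, adjusted p = 0.0836), so 0 of 1 member was called, beside 3.91% of all genes tested. DESeq2 called it (adjusted p = 0.000828), and so did edgeR without non-activated replicate 1 or 2 (adjusted p = 0.0393 and 0.0218). In EIF3G/E/F, CD3D (20 and 20 reads against no listing) was called (adjusted p = 0.0251 by edgeR) and TRBC2 was not (adjusted p = 0.402), beside 36.1% of all genes tested. CD3D lost that call without any 1 of the 4 libraries (adjusted p from 0.0525 to 0.924 by edgeR) and with DESeq2 (adjusted p = 0.0896).

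Ratios of reads within a library need no scaling to depth. TRBC2 had 3.39 and 3.53 times the reads of CD3D in activated EIF3A/C/B. In EIF3B/C the ratio was 4.77 and 4.30 in activated cells, against 0.357 and 0.196 in non-activated cells. For EIF3D/L the ratio was 1.48 and 2.02 in activated cells, against 0.471 and 0.467 in non-activated cells. TRBC2 had more reads than CD3D in each activated library that lists both genes, and fewer in each such non-activated library. Activated EIF3G/E/F replicate 1 listed CD3D (20 reads) but not TRBC2. Both activated EIF3F/E libraries listed TRBC2 (28 and 45 reads) but not CD3D. The difference was not tested, since 2 libraries against 2 cannot give an exact two-sided permutation p under 0.333, and how many other genes show the same was not counted. The non-activated side rests on 7 to 11 TRBC2 reads from 1 site, against 10 to 27 sites in the activated libraries of the same bands, so these are ratios of sums over different sites, and the part of sites lost under the minimum was not tested.

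**Figure D4:**
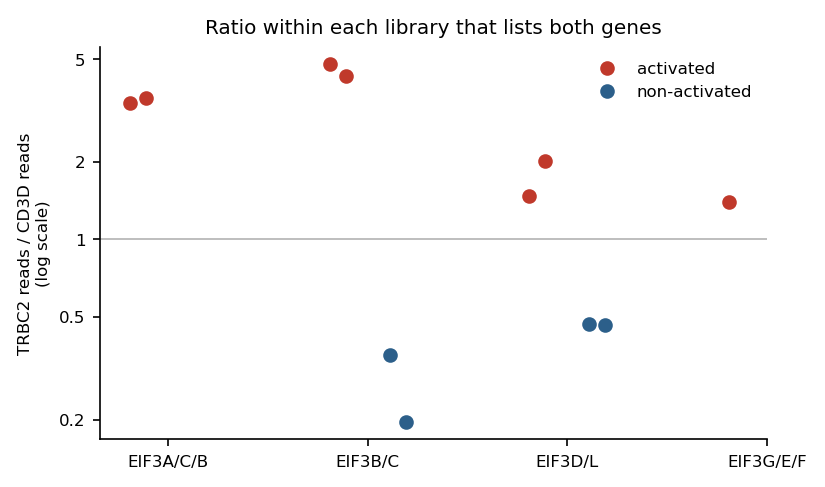
Ratio of TRBC2 to CD3D cluster reads (log scale) in each library that lists both genes, with activated cells on the left of each band. The activated ratios lie at 1.4 to 4.77 and the non-activated ratios at 0.196 to 0.471.

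Whether the change between states differed from band to band was tested by an interaction term, added after the data were seen. For CD3D, the log2 change in EIF3D/L exceeded that in EIF3B/C by 2.26 (SE 0.357, adjusted p = 0.0188 by edgeR), beside 9.13% of all genes called. With mRNA reads as library sizes the CD3D difference was 0.69 and did not pass (adjusted p = 0.888 by edgeR). For TRBC2 the same difference was 0.03 (SE 0.311, adjusted p = 1.00 by edgeR). For the constant region class, the change in EIF3B/C exceeded that in EIF3A/C/B by 0.82 (SE 0.0963, adjusted p = 0.000878 by edgeR), beside 45% of all classes, and it was 0.92 with mRNA reads as library sizes.

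The second comparison asked how the members were spread over the bands in activated cells. TRBC2 had 1029 ± 4.39 RPM in EIF3A/C/B, 899 ± 17.7 in EIF3B/C and 854 ± 71.6 in EIF3D/L, and CD3D had 298 ± 10.2, 199 ± 18.4 and 496 ± 67.6 in the same bands (SD, n = 2 each). TRAC had 296 ± 4.07 in EIF3A/C/B, 385 ± 14.5 in EIF3B/C and 76.0 ± 51.0 in EIF3D/L (SD, n = 2 each). CD3D was thus highest in the EIF3D/L band, where TRAC was lowest of the 3 bands that list it.

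In EIF3D/L over EIF3A/C/B, edgeR called 3 of the 5 members tested, beside 56.7% of all genes. CD3D was higher (log2 0.74, SE 0.155, adjusted p = 0.0283). The others called, CD247 and CD3E, entered with 0 reads in EIF3D/L, whose libraries had 200340 and 249762 uniquely aligned reads, against 1148037 and 1163754 in EIF3A/C/B, and their calls say nothing about them. TRAC had a log2 difference of -1.94 (SE 0.547, adjusted p = 0.0529) and TRBC2 of -0.27 (SE 0.0925, adjusted p = 0.0828 by edgeR). Both bands of a replicate come from one precipitate, and with the replicate as a block 0 members passed (CD3D log2 0.73, adjusted p = 0.768) and 0 genes of all 3229 tested did. The same held without EIF3A/C/B replicate 1 or 2 (CD3D adjusted p = 0.895 and 0.888), whereas TRAC passed without EIF3D/L replicate 1 or 2 (adjusted p = 0.00402 and 0.00358 by edgeR), and TRBC2 passed without replicate 2 (adjusted p = 0.00613). DESeq2 called 0 members. The EIF3A/C/B libraries belong to samples labelled L001 and the EIF3D/L libraries to samples labelled L002, so that label and band cannot be told apart.

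In EIF3A/C/B over EIF3B/C, 0 of 6 members passed by edgeR, beside 9.99% of all genes. At an unadjusted p under 0.05 there were 3: CD3D (log2 0.58, SE 0.105, adjusted p = 0.0514), TRAC (log2 -0.38, SE 0.0696, adjusted p = 0.0523) and TRBC2 (log2 0.20, SE 0.0376, adjusted p = 0.0563). DESeq2 called 1, TRAC (log2 -0.69, adjusted p = 2.73e-05), as did TMM scaling (adjusted p = 0.0336 by edgeR). Without EIF3B/C replicate 2, CD3D (adjusted p = 0.0359) and TRBC2 (adjusted p = 0.0422) passed by edgeR. With the replicate as a block 0 members and 0 genes of all tested passed.

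The transcription profiles show a different order of the members from the crosslinking. They are the authors' means of 2 replicates, so no error or test can be given. Activated cells had 15.0 TPM of TRAC, against 7.96 TPM in non-activated cells, a log2 difference of 0.90 on the scale of TPM plus 0.1. TRAC was the one member with a higher TPM in activated cells, and its difference was above that of 99.4% of the 8504 genes whose TPM averaged 1 or more over the states. TRBC1 had 32.9 TPM in activated cells and 58.1 TPM in non-activated cells (log2 -0.82), and TRBC2 had 8.58 and 18.2 TPM (log2 -1.07). TRBC1 RNA was therefore 3.84 times TRBC2 RNA in activated cells and 3.20 times in non-activated cells, although TRBC1 had no called cluster.

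The CD3 subunits were lower in the activated profile, as most genes were. CD3D had 39.1 TPM in activated cells and 161 TPM in non-activated cells (log2 -2.04), and CD3E had 3.29 and 11.6 TPM (log2 -1.79). CD3G had 3.43 and 20.8 TPM (log2 -2.56), and CD247 had 1.98 and 13.6 TPM (log2 -2.72). The median of the 8504 genes was -2.22, and the 10 highest genes held 88.5% of all TPM in activated cells, against 73.8% in non-activated cells. TPM is a share of a total, so in these profiles less RNA of a gene per cell and a larger share of the highest genes cannot be told apart. Relative to that median TRAC was 3.12 higher, TRBC1 1.40, TRBC2 1.14, CD3E 0.42 and CD3D 0.18 higher, while CD3G was at -0.35 and CD247 at -0.50.

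**Figure D5:**
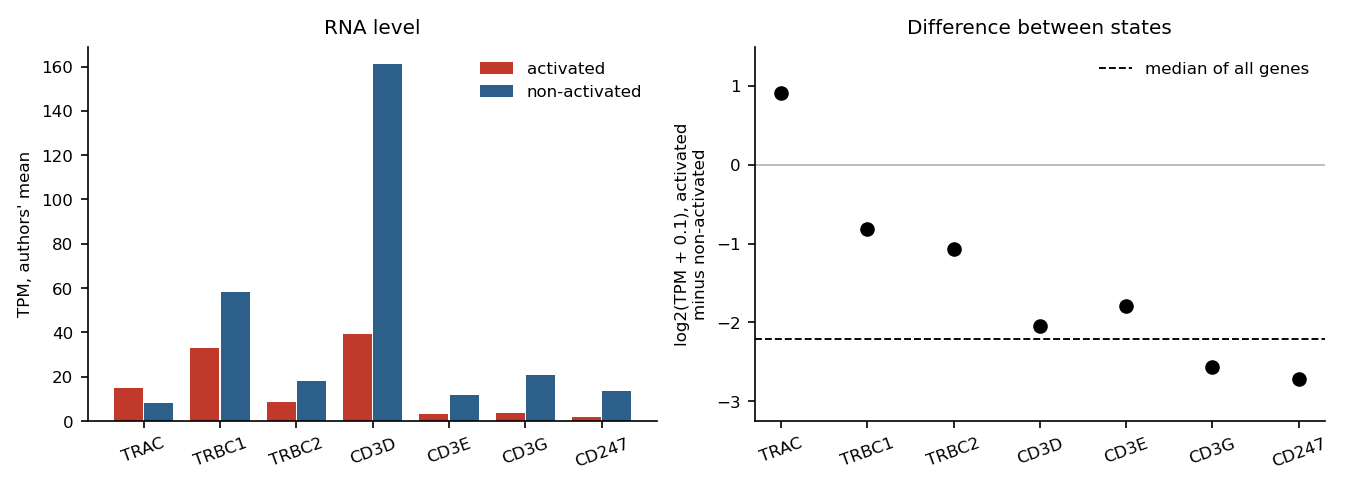
Left, TPM of the 7 members (authors' means of 2 replicates, activated to the left of non-activated, no error bars because no replicate values are given). Right, the log2 difference on the scale of TPM plus 0.1, with the median of the 8504 genes (-2.22) as a dashed line: TRAC (0.90) is the one member above 0, and CD3G and CD247 lie under the median.

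Genes that act next to the receptor gave a background for these values. Of a list of 31 receptor-proximal genes, 20 were listed in some library. In EIF3A/C/B, 12 of the 16 tested were called higher and 0 lower in activated cells, with a median fitted log2 difference of 7.52, against 7.38 over all genes tested. For EIF3B/C it was 10 of 14 (median 6.83, against 6.17) and for EIF3D/L 4 of 4 (7.67, against 7.02). It was 0 of 2 for EIF3F/E and 1 of 1 for EIF3G/E/F, with 0 lower in each band. These counts and medians rest largely on genes that are unlisted in non-activated cells, and the medians are no bounds.

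LAT, the adaptor that ZAP70 phosphorylates, had 1113 and 1109 reads in activated EIF3A/C/B, close to TRBC2, and was not listed in non-activated EIF3A/C/B. CSK, the kinase that inhibits LCK, had 740 and 783 reads in activated cells, against 10 and 14 in non-activated cells. FYN, a kinase of the LCK family, had 495 and 473 and was not listed in non-activated EIF3A/C/B. In EIF3D/L over EIF3A/C/B, 0 of 16 were higher and 8 lower, beside 38 higher and 1792 lower of all 3229 genes tested. In EIF3A/C/B over EIF3B/C, 2 of 16 were higher and 0 lower, beside 254 higher and 86 lower of all 3405 genes. In the profiles, 12 of the 24 list genes whose TPM averaged 1 or more were under the median of all genes.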

How the data were processed

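PAR-CLIP libraries (2 states, 5 bands, 2 replicates) and RNA-seq of the same 2 states were used. Samples were grouped by their labels, as they stand after a correction by the depositors that swapped labels of replicate 2 samples. Count values (reads and sites per gene in called clusters, and uniquely aligned reads per RNA class) were deposited by the authors, who used PARpipe, with PARalyzer as its caller, on alignments to hg38. A group needed 5 reads or more, and a cluster 7 reads, 11 nt and 2 conversion positions, from reads of 20 nt or longer. The T-to-C fraction values come from the same deposited tables. TPM values are the authors' kallisto estimates after trimming by Cutadapt, deposited as means of 2 replicates. Their depth is unknown.

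Cluster reads of every gene that reached 20 reads in 1 or more of the 4 libraries compared were tested with edgeR 4.0.16 (R 4.3.3; quasi-likelihood test, uniquely aligned reads as library sizes, Benjamini-Hochberg adjustment over all genes, threshold 0.05). Reads per RNA class were tested alike over all classes. A gene not listed entered with 0 reads. Alternatives were DESeq2 1.42.0, TMM, mRNA reads as library sizes, no filter on low counts, the replicate number as a block, and leaving out each library in turn. The code was checked on simulated data. TPM were summed over isoforms, with a pseudocount of 0.1. P-values measure the spread between these samples only. No per-sample column was left unmapped.

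The members and lists were chosen with earlier results of these data known. All 7 members are named, with the 2 highest V segments of each chain by TPM, the 3 listed genes of the receptor-proximal list with the most reads in activated EIF3A/C/B, and the 5 genes nearest to TRAC. Gene positions are from GENCODE release 44. Both bands of a replicate were cut from one precipitate, which pairs them; deviations of same-numbered libraries from their group means correlated at 0.0475 over 1465 genes (EIF3A/C/B and EIF3B/C) and 0.108 over 235 genes (EIF3D/L and EIF3A/C/B).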

Additional observations from a re-analysis of the deposited data

Results flagged for a closer look

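The change in CD3D reads between activated and non-activated cells differed between EIF3D/L and EIF3B/C, by 2.26 on the log2 scale (SE 0.357, adjusted p = 0.0188 by edgeR), in a test added after the data were seen. CD3D was higher in both activated libraries than in both non-activated ones in EIF3D/L (544 and 448 RPM, against 90.5 and 84.1), while in EIF3B/C the values lay close together (186 and 212, against 146 and 188) and overlapped. The share of mRNA reads moved with this result, since it was 49.2 and 49.3% in activated EIF3D/L and 12.6 and 12.5% in non-activated EIF3D/L. With mRNA reads as library sizes the difference was 0.69 (adjusted p = 0.888 by edgeR).

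The change in reads of the T cell receptor constant region class was larger in EIF3B/C than in EIF3A/C/B, by 0.82 on the log2 scale (SE 0.0963, adjusted p = 0.000878 by edgeR), also in a test added after the data were seen. The class had similar rates in activated EIF3B/C and EIF3A/C/B (1505 and 1513 RPM), and a lower one in non-activated EIF3B/C than in non-activated EIF3A/C/B (345 and 613).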

How the results depend on the processing

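Calls on cluster reads rest on 2 libraries a group and on unlisted genes, and many moved with the processing. The replicate block (the numbers are shared, and pair only the bands) left 0 members called between states in EIF3A/C/B, EIF3B/C, EIF3D/L and EIF3G/E/F, and 0 in EIF3D/L over EIF3A/C/B, against 5, 3, 3, 1 and 3, and 0 genes of all tested in each cluster comparison. With DESeq2 the counts were 3 in EIF3A/C/B, 1 in EIF3D/L, 1 in EIF3F/E (0 with edgeR), 0 in EIF3G/E/F, 1 in EIF3A/C/B over EIF3B/C (0 with edgeR) and 0 in EIF3D/L over EIF3A/C/B. TMM gave 1 in EIF3D/L and 1 in EIF3A/C/B over EIF3B/C, and mRNA reads as library sizes gave 1 in EIF3D/L. Without one library, counts ran from 0 to 4 in EIF3A/C/B, 0 to 3 in both EIF3B/C and EIF3D/L, 0 to 1 in EIF3F/E, 0 in EIF3G/E/F, 0 to 2 in EIF3A/C/B over EIF3B/C and 0 to 5 in EIF3D/L over EIF3A/C/B. A lone library is taken to vary like the others of the fit.

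The class reads passed in EIF3A/C/B, EIF3B/C, EIF3D/L and EIF3G/E/F under every setting run, except that EIF3D/L turned to -0.39 with mRNA reads as library sizes. The class in EIF3F/E ran from 0.024 to 0.62 without one library. Values near 0 changed sign. In EIF3B/C these were CD3D (-0.023 with TMM, -0.16 with mRNA reads as library sizes) and CD3G (from -1.71 to 5.99 without one library). In EIF3A/C/B over EIF3B/C they were CD247 (0.0012 with mRNA reads as library sizes, from -0.15 to 0.14 without one library), CD3E (-0.032 with TMM, -0.0061 with DESeq2, from -0.41 to 1.71 without one library), CD3G (from -0.54 to 0.58 without one library) and TRBC2 (-0.14 with TMM, -0.12 with DESeq2). In EIF3D/L over EIF3A/C/B, TRBC2 was at 0.15 with TMM and 0.18 with DESeq2. The band difference of the TRBC2 change was -1.53 with mRNA reads as library sizes. The cause was not tested.

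The median log2 difference of member TPM was -1.56 with a pseudocount of 1 and -1.97 for the most abundant isoform (-1.79 in the text). The T-to-C fraction of TRBC2 was 0.87 as the median over sites. Over all genes, DESeq2 called 172 in EIF3A/C/B (edgeR 2500), 355 for EIF3B/C (948), 213 for EIF3D/L (322), 26 for EIF3F/E (5), 814 in EIF3A/C/B over EIF3B/C (340) and 98 in EIF3D/L over EIF3A/C/B (1830). With no filter on low counts it was 674 in EIF3D/L, 79 in EIF3G/E/F (35) and 0 in EIF3A/C/B over EIF3B/C. TMM gave 108 higher and 172 lower in EIF3A/C/B over EIF3B/C (254 and 86 in the text's fit). Depth limits non-activated EIF3A/C/B most, where no member reached a mean of 7 expected reads per site, though single sites may have.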

Other observations

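Rearranged segments in the profiles were dominated by 1 variable gene per chain. TRAV8-4 had 21.7 TPM in activated cells and 12.9 TPM in non-activated cells, which was 72.8 and 66.8% of the TPM of all 17 listed TRAV genes, and TRAV18 followed with 2.25 and 2.20 TPM. TRBV12-3 had 44.4 TPM in activated cells and 61.2 TPM in non-activated cells, which was 97.9 and 93.1% of the TPM of all 46 listed TRBV genes, and TRBV7-2 followed with 0.281 and 2.15 TPM. PTCRA, which encodes the pre-T cell receptor alpha chain, had 0.0208 and 0.238 TPM, and the gamma constant genes summed to 0.361 and 0.768 TPM.

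In the cluster tables, the one segment gene listed was TRBV25-1, with 15 reads in activated EIF3A/C/B replicate 1, 21 in activated EIF3G/E/F replicate 1 and 21 in non-activated EIF3B/C replicate 2. Its RNA was near 0 (0.0125 TPM in activated cells and 0.00819 TPM in non-activated cells). TRBV12-3 and TRAV8-4 were not listed in any library. The class of variable genes had reads in 3 of the 20 libraries (191 in the highest), and the class of joining genes in 0. The study took its TCRA and TCRB reads by hand from the alignments. It reports eIF3 crosslinks along the whole of both mRNAs in activated cells. Those reads were not compared with the class counts here, which are no measure of crosslinking to the rearranged exons.

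Over the 20 libraries, the gene whose cluster reads were nearest to those of TRAC, by Euclidean distance in log2 of RPM plus 1, was MOB3A (distance 0.65), followed by TRIM56 (1.55), PTPN7 (1.57), TRIB3 (1.72) and CBX6 (1.86), among 6035 genes compared. MOB3A had 306 and 276 reads in activated EIF3A/C/B, 266 and 271 in activated EIF3B/C, and 8 and 29 in activated EIF3D/L, and like TRAC it was listed in 6 libraries. Other members of the complex ranked far lower, with CD247 at 902, CD3E at 1420, CD3G at 3136, CD3D at 5362 and TRBC2 at 5832. Depth and the minimum of reads per cluster are shared by all genes of a library and enter this distance.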
